A study of Mus musculus with 18 samples.

Results

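The organic ion and drug transporter genes were examined in the right kidneys of 18 male wild-type C57BL/6 mice, all labelled as 6 weeks old, with 6 mice in each of 3 groups. They were the genes whose symbol begins with Slc22a, Slc47a, Slco and a digit, Abcb, Abcc or Abcg, apart from Slco1a1. These were 62 of the 32675 genes in the deposited table, with 24 Slc22a, 2 Slc47a, 11 Slco, 9 Abcb, 10 Abcc and 6 Abcg genes. Mice of the Ctrl group were handled and never defeated. Mice of the groups labelled StressPbs and StressFlx, called PBS and FLX here, met an aggressive CD-1 male for 10 min daily during 2 weeks, a procedure called chronic social defeat stress (CSDS). Through this time FLX mice received a daily injection of fluoxetine (10 mg per kg), a serotonin reuptake inhibitor, and PBS mice one of phosphate-buffered saline. The Ctrl mice were not described as injected, so PBS versus Ctrl compares defeat and injection together, and FLX versus PBS compares the drug among defeated mice. Poly(A) RNA of whole kidney was sequenced, so that fewer cells of a type and less RNA per cell cannot be told apart.

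The study set 1 PBS mouse aside without naming it. PBS replicate 6 stood apart in these data, as described below, and the main values rest on the other 17 mice, with values for all 6 PBS mice beside them. Total estimated counts were between 72149987 and 79061296 in 14 mice and between 48928823 and 52073640 in FLX replicates 3 to 6. Levels are in FPKM, fragment counts scaled by transcript length and library depth, as mean ± SD. Changes are given as log2FC, the log2 of the fold change, ± standard error from edgeR's two-sided quasi-likelihood test on the counts, in 1 model of the 3 groups, with p values adjusted by the Benjamini-Hochberg method over the 20251 genes tested. A gene was called changed at an adjusted p under 0.05. Single members were also tested on log2(FPKM + 0.1) by an exact two-sided permutation test, given unadjusted, whose smallest possible p is 0.00433 against the 5 PBS mice and 0.00216 for FLX versus Ctrl.

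Cells of the proximal tubule take up organic anions and cations from blood and pass them into the urine. Slc22a6 and Slc22a8 (OAT1 and OAT3) carry anions in on the blood side, and Slc22a2 (OCT2) carries cations. On the urine side Slc47a1 (MATE1) releases cations against protons, ATP-driven pumps such as Abcc2, Abcc4 and Abcg2 release anions and drugs, and Slc22a12 (URAT1) recovers urate from the tubular fluid. The Slco genes code for organic anion transporting polypeptides, which carry bile acids, prostaglandins, steroid conjugates and thyroid hormones.

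Of the 62 genes, 55 passed the filter on low counts. The other 7 (Abcb11, Abcc12, Abcg5, Slco1a5, Slco1b2, Slco1c1 and Slco5a1) reached no more than 0.103 FPKM in any mouse. In the Ctrl group 6 genes were above 100 FPKM and 23 at 1 FPKM or less. Slc22a12 was at the top with 781 ± 106 FPKM (SD, n = 6), which was 30.4% to 35.5% of the summed FPKM of the 62 genes in each Ctrl mouse. It was followed by Slc22a18, an orphan carrier gene, at 234 ± 27.5 FPKM (SD, n = 6). Further down, Slc22a6 had 172 ± 30.5 FPKM (SD, n = 6), Slc47a1 135 ± 13.8 FPKM (SD, n = 6) and Slc22a7 105 ± 23.6 FPKM (SD, n = 6). Among the ATP-driven pumps Abcg2 was highest at 39.4 ± 2.32 FPKM (SD, n = 6), followed by Abcc2 at 27.6 ± 6.61 FPKM (SD, n = 6). Abcb1b and Abcb1a, the P-glycoprotein genes, had 0.809 ± 0.138 and 0.721 ± 0.311 FPKM (SD, n = 6). Among the 40 genes with a mean of at least 1 FPKM, the median coefficient of variation between Ctrl mice was 13.4%, and it was highest, at 75.7%, for Slco4a1.

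**Figure D1:**
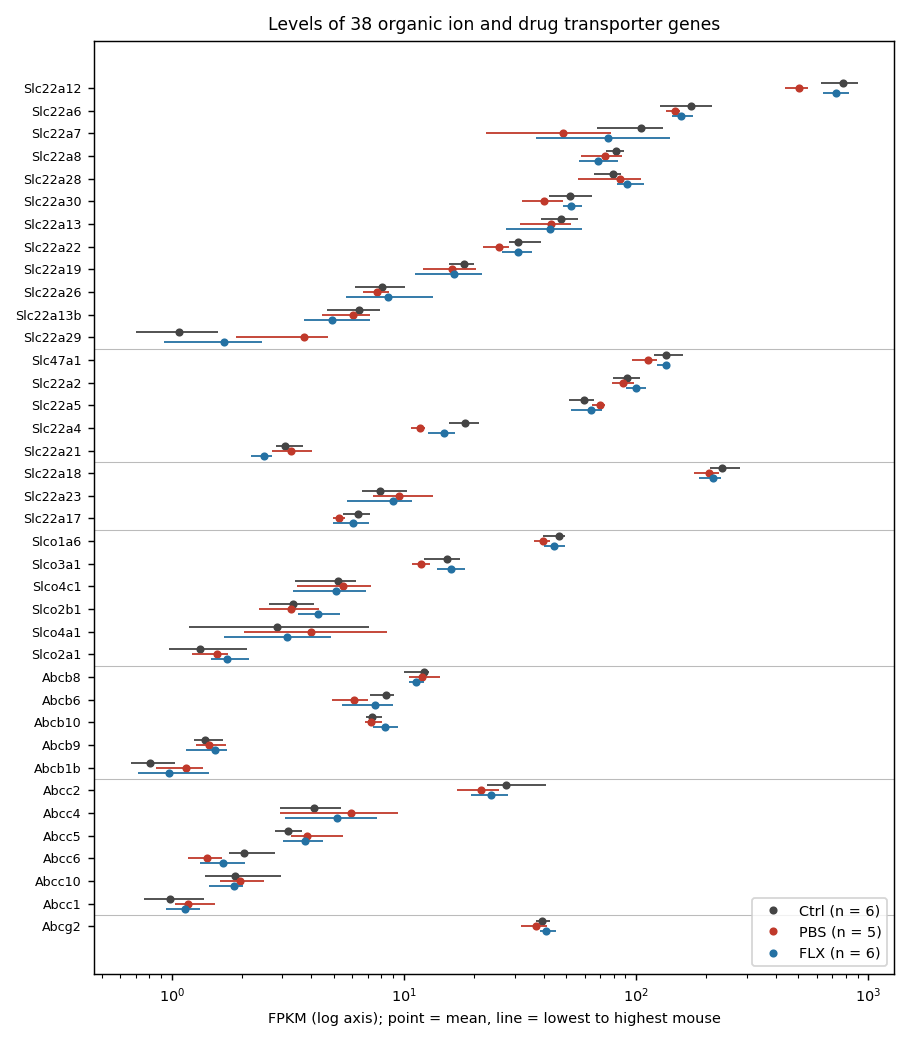
Mean FPKM (points, log axis) and the lowest to highest mouse (lines) of 38 of the 40 transporter genes with a mean of at least 1 FPKM, for Ctrl (n = 6), PBS (n = 5, without PBS replicate 6) and FLX (n = 6), ordered by role and Ctrl level. Slc22a12 lies near 781 FPKM in Ctrl and near 505 FPKM in PBS, and the ranges of most genes overlap between groups.

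The proximal tubule label was checked with 9 marker genes, among them Lrp2, Slc34a1 and Aqp1. Their summed FPKM was 2932 to 3411 in Ctrl, 2933 to 3509 in PBS and 3095 to 3511 in FLX. In PBS versus Ctrl 1 of the 9 rose (Miox, mean 1060 to 1457 FPKM) and 1 fell (Acsm2, 444 to 339), so the sum holds opposite moves. Slc7a13 was at 285, 217 and 303 FPKM in Ctrl, PBS and FLX. It did not pass in PBS versus Ctrl (log2FC -0.38, adjusted p = 0.164 from edgeR). The other markers did not pass either, with log2FC values from -0.04 (Aqp1) to 0.29 (Slc5a12). Of 55 marker genes tested from 16 lists of other cell types or states, 7 rose and 0 fell in PBS versus Ctrl at an adjusted p under 0.05 in edgeR, 1 fell and 0 rose in FLX versus PBS, and 5 rose and 1 fell in FLX versus Ctrl. The summed FPKM of 4 brown fat genes was 0.116 to 56.1 in Ctrl, 4.40 to 654 in PBS and 2.03 to 311 in FLX, with overlap of the groups, and 1 of the 4 (Elovl3) rose in PBS versus Ctrl. The summed FPKM of 6 neutrophil genes was 1.03 to 3.09 in Ctrl, 6.29 to 25.4 in PBS and 0.166 to 4.49 in FLX, with S100a8 and S100a9 risen in PBS versus Ctrl. Retnlg and Mmp8 had log2FC values of 3.69 and 2.35 and did not pass (adjusted p = 0.0691 and 0.286 from edgeR). Camp and Ly6g were below the filter on low counts. Camp was at 0 in all Ctrl mice and in PBS replicate 5, and the mean of Ly6g was 0.0285 FPKM in Ctrl and 0.0187 in PBS. S100a8 was also the gene that fell in FLX versus PBS (log2FC -3.14, adjusted p = 0.0402). Acta2 of smooth muscle, Trpm6 of the distal convoluted tubule and Scnn1g of the collecting duct rose in both defeated groups against Ctrl, with log2FC values of 0.92, 0.77 and 0.35 in PBS (adjusted p = 0.0409, 0.00551 and 0.0458). The other genes of these lists did not pass in PBS versus Ctrl. Among them Pvalb, Aqp2 and Aqp3 had negative log2FC values (-0.27, -0.18 and -0.19), and Slc12a3, Myh11 and Tagln positive ones (0.23, 0.58 and 0.77). Serpina1a of the hepatocyte list rose in PBS versus Ctrl (1.28, adjusted p = 0.0265). In that list Apoa1 (1.17), Ttr (-0.60) and Alb (-0.17) did not pass. The Ctrl means were 34.8 FPKM for Serpina1a, 72.2 for Ttr, 0.906 for Apoa1 and 1.95 for Alb. In FLX versus Ctrl the endothelial gene Flt1 and Vcam1 of injured tubule rose (0.66 and 0.83) and Ttr of the hepatocyte list fell (-1.18). The part of these cells in the changes of the transporter genes was not tested.

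In PBS versus Ctrl, 3 of the 55 genes tested were called changed, 5.45%, against 3.81% of all genes. The urate carrier gene Slc22a12 and the ergothioneine carrier gene Slc22a4 fell, and Slc22a29, an organic anion carrier gene of rodents, rose. These 3 calls held in each of the 26 alternatives tried. At the threshold that the study used, an absolute log2FC above 1 with an unadjusted p under 0.05, 5 of the 55 passed, against 3.28% of all genes (Slc22a27, Slc22a29 and Abcc3 higher, Slc22a7 and Abcg3 lower). In FLX versus PBS 3 passed that threshold, against 1.9%, and in FLX versus Ctrl 0, against 2.24%. In FLX versus PBS 1 gene was called, Slc22a29, which fell, against 0.726% of all genes. In FLX versus Ctrl 1 gene was called, Slc22a4, which was lower, against 3.67% of all genes. A count of 1 to 3 genes does not stand out from these shares. At an unadjusted p under 0.05, 20, 11 and 11 of the 55 passed in PBS versus Ctrl, FLX versus PBS and FLX versus Ctrl, against 17.9%, 11.1% and 20.4% of all genes.

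**Figure D2:**
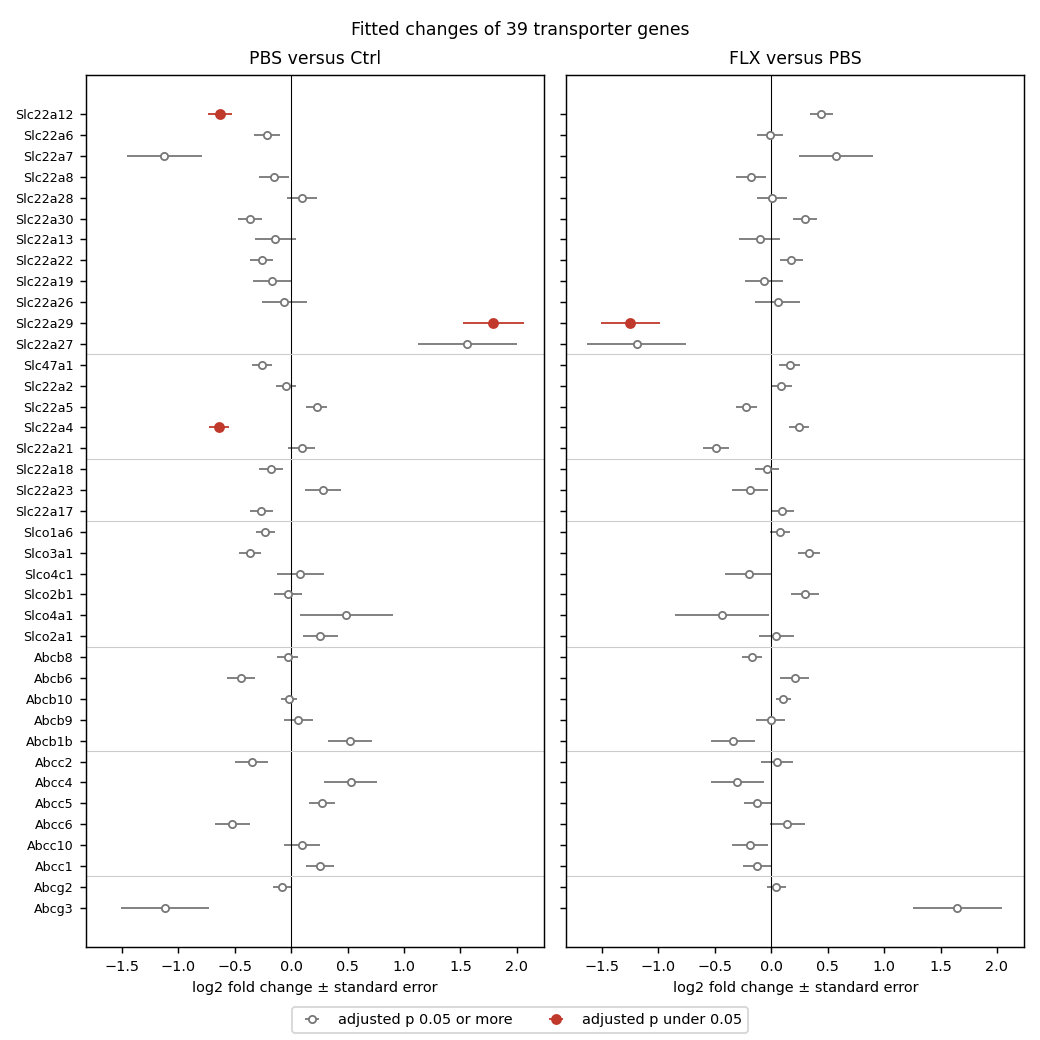
Log2FC ± standard error of 39 of the 41 transporter genes chosen by the rule for named genes, in PBS versus Ctrl (left) and FLX versus PBS (right), ordered as in the plot of levels. Filled points have an adjusted p under 0.05: Slc22a12 (-0.63), Slc22a4 (-0.64) and Slc22a29 (1.79) on the left, and Slc22a29 (-1.25) on the right. Both panels share the PBS mice, so that opposite signs in the 2 panels are not independent.

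Slc22a12 (ENSMUSG00000061742, GRCm38 chromosome 19, 6535845 to 6543032, minus strand) codes for the urate exchanger of the urine side of the proximal tubule. Its FPKM was 626, 777 and 903 at the lowest, median and highest of the 6 Ctrl mice. The 5 PBS mice had 507, 509, 552, 438 and 519 FPKM, and the 6 FLX mice had 639.5, 739 and 823 FPKM at the lowest, median and highest. Every PBS mouse was therefore below every Ctrl mouse and every FLX mouse, while Ctrl and FLX mice overlapped. Slc22a12 fell from 781 ± 106 FPKM (SD, n = 6) in Ctrl to 505 ± 41.7 FPKM (SD, n = 5) in PBS, with a log2FC of -0.63 ± 0.11 (adjusted p = 0.00214 from edgeR, exact permutation p = 0.00433). In FLX it was at 730 ± 61.5 FPKM (SD, n = 6), and FLX versus PBS was 0.44 ± 0.10, with an adjusted p of 0.0578 from edgeR (exact permutation p = 0.00433), and was called by DESeq2. With all 6 PBS mice the values were -0.67 (adjusted p = 0.00196 from edgeR) and 0.48 (adjusted p = 0.0422), as PBS replicate 6 had 443 FPKM, between the lowest and highest of the other 5. The share of Slc22a12 in the summed FPKM of the 62 genes was 23.5% to 29.0% in the PBS mice, 30.4% to 35.5% in the Ctrl mice and 31.2% to 34.3% in the FLX mice. FLX versus Ctrl was -0.18 ± 0.099 (adjusted p = 0.305 from edgeR).

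Slc22a4 (ENSMUSG00000020334, chromosome 11, 53983123 to 54028090, minus strand) codes for OCTN1, which carries the antioxidant ergothioneine. Its FPKM was 15.6, 18.6 and 21.0 at the lowest, median and highest of the Ctrl mice. The PBS mice had 12.3, 11.99, 10.7, 11.3 and 12.2 FPKM and the FLX mice 12.7, 15.3 and 16.6 FPKM at the lowest, median and highest. The PBS mice were below every Ctrl mouse and, by a narrow margin in FPKM, below every FLX mouse. Against the FLX mice this no longer held once the counts were scaled by TMM. In FPKM the FLX mice reached only into the lower end of the Ctrl range. Slc22a4 fell from 18.3 ± 1.81 FPKM (SD, n = 6) to 11.7 ± 0.675 FPKM (SD, n = 5) in PBS, with a log2FC of -0.64 ± 0.090 (adjusted p = 0.000612 from edgeR, exact permutation p = 0.00433). In FLX it was at 14.9 ± 1.60 FPKM (SD, n = 6), lower than Ctrl by a log2FC of -0.39 ± 0.085 (adjusted p = 0.0186 from edgeR, exact permutation p = 0.00866). The call against Ctrl was lost without Ctrl replicate 2 or 5 or FLX replicate 5 (adjusted p = 0.0514 to 0.0555 from edgeR) and with all 6 PBS mice in the model (adjusted p = 0.244). FLX versus PBS was 0.25 ± 0.090 (adjusted p = 0.261 from edgeR). PBS replicate 6 had 4.66 FPKM of Slc22a4, the lowest of 18 mice, and with it PBS versus Ctrl was -0.79 (adjusted p = 0.0150 from edgeR).

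Slc22a29 (ENSMUSG00000075044, chromosome 19, 8160165 to 8218899, minus strand) lies in a run of related organic anion carrier genes. The Ctrl mice had 0.700, 1.03 and 1.59 FPKM at the lowest, median and highest, from 143 to 312 estimated counts. The PBS mice had 4.23, 3.07, 4.71, 4.70 and 1.89 FPKM, and the FLX mice 0.931, 1.58 and 2.45 FPKM at the lowest, median and highest. All 5 PBS mice were above every Ctrl mouse, and 4 of 5 were above every FLX mouse. The exception was PBS replicate 5, in which the brown fat genes summed to 654 FPKM, the highest of all mice, and whose part in this value was not tested. Slc22a29 rose from 1.08 ± 0.294 FPKM (SD, n = 6) to 3.72 ± 1.22 FPKM (SD, n = 5) in PBS, with a log2FC of 1.79 ± 0.27 (adjusted p = 0.000871 from edgeR, exact permutation p = 0.00433). It fell to 1.67 ± 0.522 FPKM (SD, n = 6) in FLX, with a log2FC of -1.25 ± 0.26 against PBS (adjusted p = 0.0339 from edgeR, exact permutation p = 0.0130). FLX versus Ctrl was 0.55 ± 0.25 (adjusted p = 0.233 from edgeR). PBS replicate 6 had 1.59 FPKM, and with it the values were 1.64 (adjusted p = 0.00426) in PBS versus Ctrl and -1.10 (adjusted p = 0.0886) in FLX versus PBS. The call of FLX versus PBS was also lost without PBS replicate 1, 3 or 4 or FLX replicate 1, 3, 4 or 6 (adjusted p = 0.0613 to 0.110 from edgeR).

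**Figure D3:**
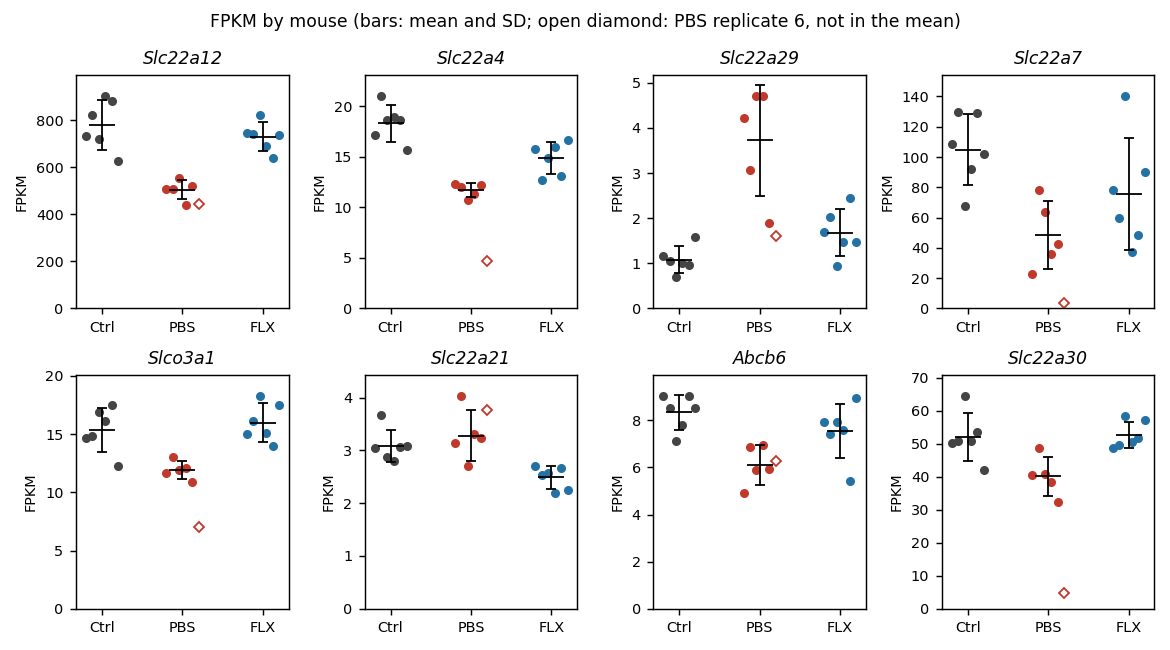
FPKM of 8 transporter genes in each mouse, with points for Ctrl (n = 6), PBS (n = 5) and FLX (n = 6), bars for mean and SD, and an open diamond for PBS replicate 6, which is not in the mean. The PBS points of Slc22a12 (438 to 552 FPKM) and Slc22a4 (10.7 to 12.3 FPKM) lie below all Ctrl and FLX points, and the PBS points of Slc22a29 (1.89 to 4.71 FPKM) above all Ctrl points. For Slc22a4 the separation from FLX did not hold after TMM scaling of the counts.

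The letters of Slc22a29 and its relatives are shown because reads were assigned among near copies. Over the whole coding sequence in GENCODE M21, Slc22a29 was identical to Slc22a27 in 97.28% of the positions with a base in both, to Slc22a28 in 92.32% and to Slc22a30 in 92.68%. The coding sequence of Slc22a30 used here was shorter, with 1314 bases against 1653. Coding bases 685 to 744 of Slc22a29, counted from the A of the start codon, and the aligned bases of 3 relatives are printed below, with capitals for bases unlike Slc22a29. In this stretch Slc22a27 and Slc22a30 each differed at 7 of 60 bases and Slc22a28 at 6.
Slc22a29: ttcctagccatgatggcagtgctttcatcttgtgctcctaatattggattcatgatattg
Slc22a27: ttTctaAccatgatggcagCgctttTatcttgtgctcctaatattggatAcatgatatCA
Slc22a28: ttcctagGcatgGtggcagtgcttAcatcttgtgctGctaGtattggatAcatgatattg
Slc22a30: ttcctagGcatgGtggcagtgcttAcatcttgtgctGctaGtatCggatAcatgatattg
Of all 150-base windows of the Slc22a29 transcripts 0.566% were found in another gene, Slc22a27, while 28.5% of those of Slc22a28 were shared with Slc22a30. Slc22a28, an abundant relative, was at 79.8 ± 7.07 FPKM (SD, n = 6) in Ctrl, 84.9 ± 18.6 FPKM (SD, n = 5) in PBS and 91.1 ± 9.67 FPKM (SD, n = 6) in FLX, and none of its comparisons passed (PBS versus Ctrl 0.10 ± 0.13, adjusted p = 0.762 from edgeR). Slc22a29 was 0.870% to 2.41% of the Slc22a28 level in Ctrl mice, 2.94% to 5.66% in PBS mice and 1.07% to 2.27% in FLX mice, so that the PBS range lay above both others. Slc22a27, the closest of the 3 relatives, had 14 to 30 estimated counts in Ctrl mice and 19 to 110 in the 5 PBS mice, and its log2FC in PBS versus Ctrl was 1.56 ± 0.44 (adjusted p = 0.0554 from edgeR). Over all 6 PBS mice it was 1.3 (adjusted p = 0.283), as PBS replicate 6 was listed at 0. Since reads common to the near copies could have been split among them, the values of Slc22a27, Slc22a28, Slc22a29 and Slc22a30 are uncertain to that extent.

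The 9 Slc22a genes on chromosome 19 did not move as a block. In gene order, Slc22a12 was followed by Slc22a19, Slc22a26, Slc22a27, Slc22a28, Slc22a29, Slc22a30, Slc22a8 and Slc22a6. Slc22a19, Slc22a26 and Slc22a8 gave log2FC values of -0.17, -0.06 and -0.15 in PBS versus Ctrl, each with an adjusted p of at least 0.605 from edgeR. Slc22a30, next to Slc22a29, was at 52.0 ± 7.22 FPKM (SD, n = 6) in Ctrl, 40.1 ± 5.84 FPKM (SD, n = 5) in PBS and 52.6 ± 4.06 FPKM (SD, n = 6) in FLX, with a log2FC of -0.36 ± 0.11 in PBS versus Ctrl (adjusted p = 0.0665 from edgeR). On chromosome 11 the order was Slc22a5, Slc22a21 and Slc22a4. Slc22a5, the main carnitine carrier gene, was at 59.8 ± 5.59 FPKM (SD, n = 6) in Ctrl and 69.7 ± 3.98 FPKM (SD, n = 5) in PBS, with a log2FC of 0.23 ± 0.093 (adjusted p = 0.194 from edgeR), against the fall of Slc22a4. Slc22a4 was 24.7% to 36.6% of the Slc22a5 level in Ctrl mice, 15.7% to 18.6% in PBS mice and 18.4% to 30.6% in FLX mice.

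**Figure D4:**
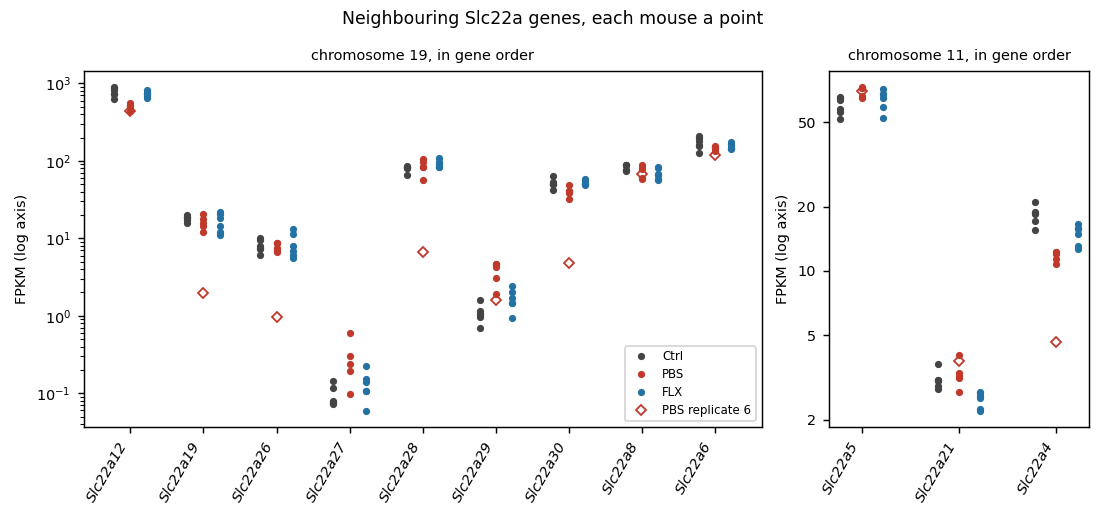
FPKM (log axis) of neighbouring Slc22a genes in each mouse, in gene order along chromosome 19 (left) and chromosome 11 (right), with filled points for Ctrl (n = 6), PBS (n = 5) and FLX (n = 6) and open diamonds for PBS replicate 6, where Slc22a27 is listed at 0 and not drawn. Slc22a29 and Slc22a12 separate PBS from Ctrl in opposite directions, and the diamonds of Slc22a19, Slc22a26, Slc22a28 and Slc22a30 lie far below all other points.

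The promoters of the 3 genes called in PBS versus Ctrl are printed for context, as 250 bases before and 50 bases after the start in RefSeq (GRCm38.p6), 5′ to 3′ on the gene's strand. A RefSeq promoter was found for 47 of the 62 genes. Capitals mark matches, on either strand, to 3 motifs searched: the HNF4 core (CAAAG), STAT (TTCNNNGAA) and the E-box (CACGTG). No match of one motif overlapped that of another in these 3 windows.
Slc22a12, chr19:6543021-6543320, minus strand: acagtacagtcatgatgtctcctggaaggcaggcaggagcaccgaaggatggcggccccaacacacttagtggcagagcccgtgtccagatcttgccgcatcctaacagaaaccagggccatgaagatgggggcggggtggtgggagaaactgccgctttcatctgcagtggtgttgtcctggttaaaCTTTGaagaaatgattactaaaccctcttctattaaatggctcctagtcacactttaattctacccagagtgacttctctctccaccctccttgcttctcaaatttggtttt
Slc22a29, chr19:8218851-8219150, minus strand: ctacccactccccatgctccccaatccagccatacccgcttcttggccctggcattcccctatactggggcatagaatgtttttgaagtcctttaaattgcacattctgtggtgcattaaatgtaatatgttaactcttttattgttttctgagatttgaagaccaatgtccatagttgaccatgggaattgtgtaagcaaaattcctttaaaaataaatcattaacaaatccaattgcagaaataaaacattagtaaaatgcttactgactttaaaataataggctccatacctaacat
Slc22a4, chr11:54028055-54028354, minus strand: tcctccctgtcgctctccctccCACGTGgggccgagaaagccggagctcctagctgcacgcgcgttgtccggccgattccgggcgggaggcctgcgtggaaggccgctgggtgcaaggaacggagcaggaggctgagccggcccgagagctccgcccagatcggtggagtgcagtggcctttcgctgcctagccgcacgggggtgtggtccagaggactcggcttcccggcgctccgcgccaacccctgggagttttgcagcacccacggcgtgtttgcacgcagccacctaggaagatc
The Slc22a12 window held 1 match, to the HNF4 core, and the Slc22a4 window held 1, to the E-box. None of these letters were found in the Slc22a29 window. Of 32851 promoters of this length, 53.9% held the HNF4 core, 7.15% the E-box and 8.3% the STAT motif. Of the 57 promoters of these 47 genes, 64.9%, 5.26% and 15.8% held them, in the same order. A match is a run of letters and was not tested as a binding site.

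The other organic anion and urate carrier genes did not pass in PBS versus Ctrl by edgeR. Of the 13 tested, 1 rose, 1 fell and 11 did not pass, and 10 had a negative log2FC. DESeq2 also called Slc22a7 and Slc22a30 lower and Slc22a27 higher. Slc22a7 (OAT2) had a coefficient of variation of 22.5%, 45.7% and 49.01% between the Ctrl, PBS and FLX mice. Its FPKM was 67.7, 105 and 130 at the lowest, median and highest of the Ctrl mice, 22.6, 78.0, 63.8, 36.0 and 42.3 in the PBS mice and 37.1, 69.2 and 140.5 at the lowest, median and highest of the FLX mice. The groups overlapped, and the log2FC in PBS versus Ctrl was -1.12 ± 0.33 (adjusted p = 0.0691 from edgeR, exact permutation p = 0.00866). Slc22a6 and Slc22a8, the main uptake carriers for anions, had log2FC values of -0.21 ± 0.11 and -0.15 ± 0.13 (adjusted p = 0.351 and 0.605 from edgeR). Against PBS, FLX gave -0.01 ± 0.11 and -0.18 ± 0.13 (adjusted p = 0.990 and 0.694). Slc22a22, a prostaglandin carrier gene, was at 31.0 ± 4.05 FPKM (SD, n = 6) in Ctrl, 25.7 ± 2.47 FPKM (SD, n = 5) in PBS and 31.0 ± 3.81 FPKM (SD, n = 6) in FLX (PBS versus Ctrl -0.26 ± 0.10, adjusted p = 0.183 from edgeR). Slc22a13 (OAT10) had 47.4 ± 6.78, 42.9 ± 7.92 and 42.7 ± 12.1 FPKM in Ctrl (SD, n = 6), PBS (SD, n = 5) and FLX (SD, n = 6).

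Of the 8 organic cation and carnitine carrier genes tested, Slc22a4 fell in PBS versus Ctrl and 7 did not pass by edgeR or DESeq2. Slc22a2 and Slc47a1, carriers for the uptake and release of cations, had log2FC values of -0.05 ± 0.092 and -0.26 ± 0.090 (adjusted p = 0.852 and 0.132 from edgeR). For the same genes FLX versus PBS gave 0.09 ± 0.092 and 0.16 ± 0.090 (adjusted p = 0.804 and 0.542). Slc47a1 had 119.5, 132 and 160.0 FPKM at the lowest, median and highest of the Ctrl mice, 103, 122, 117, 123 and 95.7 FPKM in the PBS mice and 123, 136 and 140.0 FPKM at the lowest, median and highest of the FLX mice. Its PBS mice lay below every FLX mouse in FPKM, but the groups overlapped once the counts were scaled by TMM. Slc22a21, a carnitine carrier gene that shares 6.64% of its 150-base windows with Slc22a5, had 2.70, 2.53, 2.58, 2.198, 2.67 and 2.26 FPKM in the FLX mice. All were below the Ctrl mice (2.80 to 3.66 FPKM) and, by a narrow margin in FPKM, below the PBS mice (2.71 to 4.03 FPKM). The separation from the PBS mice no longer held after TMM scaling of the counts. The log2FC was -0.40 ± 0.11 in FLX versus Ctrl (adjusted p = 0.0611 from edgeR, exact permutation p = 0.00216) and -0.49 ± 0.12 in FLX versus PBS (adjusted p = 0.0697, exact permutation p = 0.00433). Over all 6 PBS mice the latter was -0.51 (adjusted p = 0.0455 from edgeR), and DESeq2 called Slc22a21 lower in both comparisons.

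None of the 7 organic anion transporting polypeptide genes tested passed in any comparison by edgeR, and 1 (Slco3a1, lower in PBS versus Ctrl) was called by DESeq2. At an unadjusted p under 0.05 in edgeR, 2, 2 and 1 passed in PBS versus Ctrl, FLX versus PBS and FLX versus Ctrl. The shares of all genes were 17.9%, 11.1% and 20.4%. Slco3a1, a prostaglandin and thyroid hormone carrier gene, had 12.3, 15.4 and 17.5 FPKM at the lowest, median and highest of the Ctrl mice, 11.6, 13.0, 11.9, 12.1 and 10.9 FPKM in the PBS mice and 13.9, 15.6 and 18.3 FPKM at the lowest, median and highest of the FLX mice. The PBS mice were below every FLX mouse in FPKM, which no longer held after TMM scaling, and overlapped with 1 Ctrl mouse. The log2FC was -0.36 ± 0.10 in PBS versus Ctrl (adjusted p = 0.0518 from edgeR) and 0.34 ± 0.10 in FLX versus PBS (adjusted p = 0.153). Slco1a6 was the highest of the family, with 46.6 ± 3.69 FPKM (SD, n = 6) in Ctrl, 39.6 ± 2.2 FPKM (SD, n = 5) in PBS and 44.5 ± 3.12 FPKM (SD, n = 6) in FLX (PBS versus Ctrl -0.23 ± 0.086, adjusted p = 0.158 from edgeR). Slco2a1, the prostaglandin carrier gene, was at 0.26 ± 0.16 (adjusted p = 0.418 from edgeR) and Slco2b1 at -0.03 ± 0.12 (adjusted p = 0.938) in PBS versus Ctrl. Slco4c1 and Slco4a1 had 0.08 ± 0.21 and 0.49 ± 0.42 (adjusted p = 0.885 and 0.591). Of the 5 other Slc22a genes none passed by edgeR or DESeq2. At an unadjusted p under 0.05 in edgeR 1, 0 and 1 of them passed, against the same shares of all genes. Slc22a18 was at -0.18 ± 0.11 and Slc22a17, a receptor gene for lipocalin-2, at -0.26 ± 0.10 in PBS versus Ctrl (adjusted p = 0.411 and 0.170 from edgeR), while Slc22a23 was at 0.28 ± 0.16 (adjusted p = 0.384).

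None of the 22 Abcb, Abcc and Abcg genes tested passed in any of the 3 comparisons by edgeR. At an unadjusted p under 0.05 in edgeR, 8, 1 and 3 passed in PBS versus Ctrl, FLX versus PBS and FLX versus Ctrl. Of all genes, 17.9%, 11.1% and 20.4% did so, in the same order. By DESeq2 Abcb6 and Abcc6 were called lower in PBS versus Ctrl and Abcg3 higher in FLX versus PBS. Abcb6, which codes for a porphyrin-related pump, had 7.11, 8.52 and 9.03 FPKM at the lowest, median and highest of the Ctrl mice and 4.91, 6.88, 5.89, 6.97 and 5.95 FPKM in the PBS mice. These did not overlap in FPKM but did after TMM scaling, and the log2FC was -0.44 ± 0.13 (adjusted p = 0.0580 from edgeR, and 0.0374 over all 6 PBS mice). Of the 150-base windows of Abcb6 82.9% were shared with Gm29253, itself listed at a mean of 1.001 FPKM, so that its value is uncertain. Abcc6 was at 2.05 ± 0.387 FPKM (SD, n = 6) in Ctrl and 1.42 ± 0.220 FPKM (SD, n = 5) in PBS, with no overlap (log2FC -0.52 ± 0.16, adjusted p = 0.0726 from edgeR). Among the pumps that release anions and drugs to the urine, Abcc2 had a log2FC of -0.35 ± 0.14, Abcc4 of 0.53 ± 0.24 and Abcg2 of -0.08 ± 0.084 in PBS versus Ctrl (adjusted p = 0.196, 0.243 and 0.688 from edgeR). Their values in FLX versus PBS were 0.05 ± 0.14, -0.30 ± 0.24 and 0.05 ± 0.084 (adjusted p = 0.942, 0.728 and 0.906). Abcb1b was at 0.52 ± 0.19 in PBS versus Ctrl (adjusted p = 0.151 from edgeR) and -0.34 ± 0.19 in FLX versus PBS (adjusted p = 0.567). The mitochondrial Abcb8 and Abcb10 were at -0.03 ± 0.092 and -0.02 ± 0.070 in PBS versus Ctrl (adjusted p = 0.912 and 0.938). Abcg3, a rodent relative of Abcg2, had 16, 30, 14, 22 and 35 estimated counts in the PBS mice and 36 to 70 in the FLX mice. In FPKM it ranged from 0.0696 to 0.322 in Ctrl, 0.0450 to 0.115 in PBS and 0.170 to 0.323 in FLX. The Ctrl mice overlapped with both other groups. FLX versus PBS gave a log2FC of 1.65 ± 0.40 (adjusted p = 0.0649 from edgeR, and 0.0409 over all 6 PBS mice). The remaining named genes Abcb9, Abcc1, Abcc5 and Abcc10 had log2FC values of 0.06, 0.26, 0.27 and 0.10 in PBS versus Ctrl (adjusted p = 0.854, 0.286, 0.228 and 0.806 from edgeR). Another 14 genes tested across all families, among them Slc22a3 (OCT3), Slc47a2, Abcb1a, Abcb4 and Abcc3, did not pass in any comparison, with adjusted p values of at least 0.275 in PBS versus Ctrl, 0.435 in FLX versus PBS and 0.135 in FLX versus Ctrl from edgeR.

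Most of the abundant transporter genes were slightly lower in PBS than in Ctrl, few of them beyond the test. Of the 20 genes with a mean of at least 10 FPKM, 18 had a negative log2FC in PBS versus Ctrl, the exceptions being Slc22a5 and Slc22a28, against 51.8% of all 3860 genes at that level. Their median was -0.19, against -0.01 for all genes at that level, and 2 of the 20 passed the test. Over the 26 alternatives 17 to 19 of the 20 were negative. The 20 genes were measured in the same mice and are not independent of each other, and this count was not tested. In FLX versus PBS 8 of the 20 were negative, against 68.4% of all genes at that level, and in FLX versus Ctrl 17 of 20, against 64.5%. Over their alternatives these counts ran from 4 to 10 and from 13 to 18. The summed FPKM of the 62 genes was 2059 to 2626 in Ctrl, 1789 to 1971 in PBS and 2048 to 2398 in FLX, so that the 5 PBS mice were below all Ctrl and FLX mice. PBS replicate 6 was lower still, at 1302. Without Slc22a12 the sums were 1433 to 1744, 1270 to 1462 and 1382 to 1575, and the groups overlapped. Across all 55 genes tested, the median log2FC was -0.05 in PBS versus Ctrl, 0.01 in FLX versus PBS and -0.08 in FLX versus Ctrl, against -0.0078, -0.0027 and -0.0092 for all genes.

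Counts of genes whose groups do not overlap depended on the scale. In PBS versus Ctrl 5 of 55 genes did not overlap in FPKM (9.09%, against 3.52% of all genes), and 4 after TMM scaling of the counts (against 3.47%). In FLX versus PBS 6 of 55 did not overlap in FPKM (10.9%, against 2.92%), 5 higher and 1 lower in FLX (against 2.45% and 0.469%), and 2 after TMM scaling (against 2.01%), namely Slc22a12 and Abcg3. Among all genes, 496 were higher and 95 lower in FLX than in PBS without overlap in FPKM, and 206 and 202 after TMM scaling. In FLX versus Ctrl 1 of 55 did not overlap in FPKM, Slc22a21 (1.82%, against 3.4%), and 2 after TMM scaling, Slc22a21 and Slc22a4 (against 2.93%).

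PBS replicate 6 differed from the other PBS mice in a group of these genes. It was the lowest of the 18 mice for 22 of the 55 genes tested, against 13.9% of all genes, and the highest for 7, against 15.3% of all genes. Of the 40 genes with a mean of at least 1 FPKM, 9 were more than 4 times lower than the median of the other 5 PBS mice, against 1.78% of 12128 genes at that level. They were carriers of organic anions in most cases. Slc22a28 had 6.75 FPKM against 56.2 to 105 in the other PBS mice, Slc22a7 3.46 against 22.6 to 78.0, Slc22a13 4.26 against 31.8 to 52.7 and Slc22a30 4.77 against 32.4 to 48.7. Slc22a22 (2.64 FPKM), Slc22a19 (2.00), Slc22a26 (0.959), Slco4c1 (0.603) and Slc22a13b (0.417) were the other 5. Another 11 of the 40 were below all other PBS mice by less, among them Slc22a18 at 61.9 FPKM against 178 to 228, Slc22a2 at 37.5 against 78.6 to 98.2, Slc47a1 at 72.8 against 95.7 to 123 and Slco1a6 at 30.2 against 36.5 to 42.5. A further 14, among them Slc22a12 at 443 FPKM, Slc22a5 at 70.0 and Slc22a8 at 67.5, lay within the range of the other PBS mice, and 6 were above it. Abcc4 at 15.7 FPKM, Slco2b1 at 7.22 and Abcb1b at 2.73 were more than 2 times the median of the other 5 PBS mice, against 4.86% of genes at that level, and above all 17 other mice. In the same mouse the summed FPKM of the 9 proximal tubule markers was 1248, with Slc7a13, a marker of the last part of the proximal tubule, at 6.44 against 172 to 254 in the other PBS mice. Lrp2, Cubn, Slc34a1, Aqp1, Miox and Acsm2 were also below the other PBS mice. Slc5a2 at 149 FPKM and Slc5a12 at 29.2 lay within their ranges (124 to 156 and 22.2 to 36.2). The 4 injured tubule markers summed to 65.0 FPKM against 2.75 to 7.49, and the 6 neutrophil markers to 60.1 against 6.29 to 25.4. The part of these cells in the levels of the transporter genes was not tested.

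**Figure D5:**
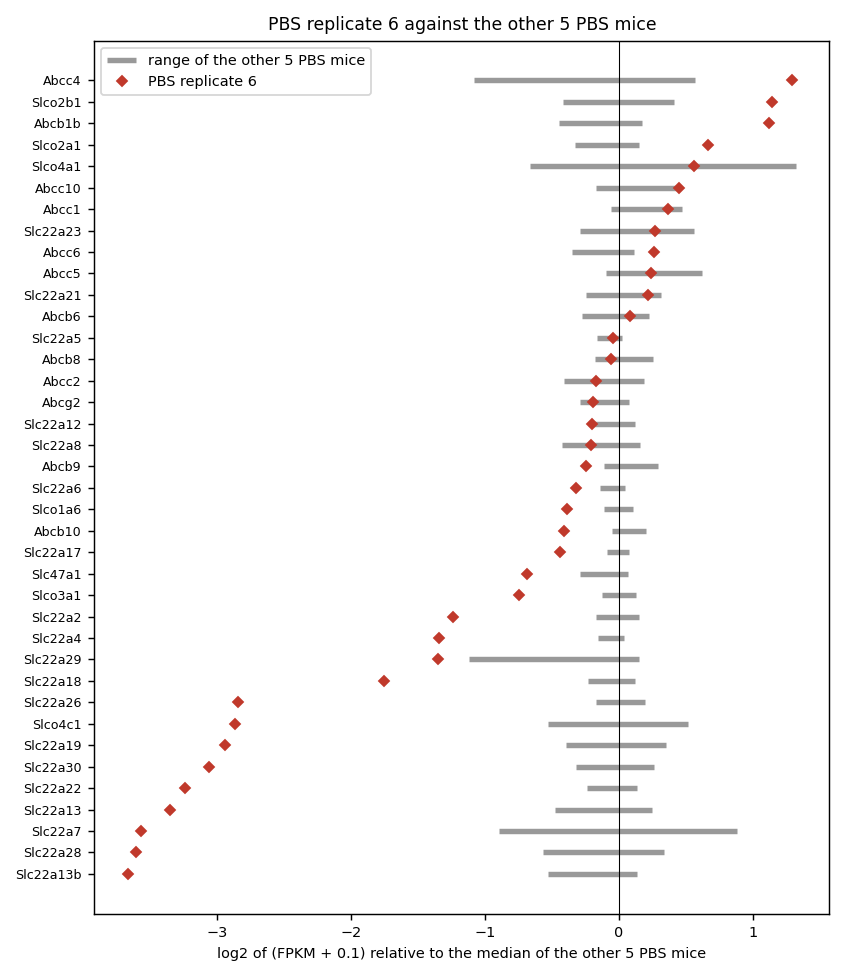
Log2 of FPKM + 0.1 in PBS replicate 6 (diamonds) relative to the median of the other 5 PBS mice, with the range of those 5 mice as grey bars, for 38 of the 40 transporter genes with a mean of at least 1 FPKM. The 9 lowest diamonds, from Slc22a13b at -3.67 to Slc22a26 at -2.84, stand apart from the rest, and Abcc4 at 1.3 is the highest.

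Genes that work with the transporters were listed too, with results of these data known. Of 24 other carriers of anions, urate, peptides and nucleosides tested, 1 rose in PBS versus Ctrl, Slc10a2, the bile acid carrier gene, from 7.30 ± 1.34 FPKM (SD, n = 6) to 12.8 ± 3.29 FPKM (SD, n = 5), with a log2FC of 0.83 (adjusted p = 0.0105 from edgeR). In FLX versus Ctrl Slc13a2, a dicarboxylate carrier gene, was lower by a log2FC of -0.33 (adjusted p = 0.0419 from edgeR). The urate carrier genes Slc2a9, Slc17a1 and Slc17a3 had log2FC values of 0.08, -0.05 and -0.10 in PBS versus Ctrl (adjusted p = 0.767, 0.839 and 0.712). Of 4 scaffold genes, Pdzk1, which anchors Slc22a12 at the membrane, was at 0.19 in PBS versus Ctrl (adjusted p = 0.449), and Slc9a3r2 was higher in FLX versus Ctrl by 0.57 (adjusted p = 0.00596). Of 17 transcription factor and receptor genes, Prlr, the prolactin receptor gene, rose in PBS versus Ctrl (1.60, adjusted p = 0.00198) and fell in FLX versus PBS (-1.28, adjusted p = 0.0282). Hnf4a, a factor of the proximal tubule, was at 0.27 in PBS versus Ctrl (adjusted p = 0.112), and none of the other factors passed.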

How the data were processed

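Kidney RNA of 18 mice was sequenced from dUTP libraries with molecular identifiers, per the labels. The authors mapped reads to GRCm38 with HISAT and deposited FPKM values from StringTie. The submitters' processing notes name cutadapt 1.9, HISAT2 2.0.4, UMI-tools and StringTie 1.3.4d, whereas the study's methods name fastp and HISAT-3N. The deposited table also holds whole-number estimated counts, made with a tool not given in the sources used here. Per mouse a median of 720 genes had 4 counts but 484.5 had 3 and 268 had 5, so they are not plain read counts.

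Counts were tested with edgeR 4.0.16 in R 4.3.3 (TMM scaling, filterByExpr, quasi-likelihood test, 1 model over the 3 groups, Benjamini-Hochberg adjustment over 20251 genes), on 17 mice without PBS replicate 6. The script was tested on simulated counts. Some genes are included in the counts and fits but not reported here by name. Nothing in the labels says that the replicate numbers mark litters or batches, and p values measure the spread between mice. Permutation tests used scipy 1.17.1 with a pseudocount of 0.1 FPKM. Alternatives were all 6 PBS mice, other scalings, no filter, DESeq2 1.42.0, limma 3.58.1 on log2(FPKM + 0.1) and log2(FPKM + 1), the 2 compared groups alone, the replicate number as a block, subsets of the FLX mice, and leaving out each mouse.

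The genes, lists and tests were chosen with earlier results of these data known. Genes were named where called, near the threshold (adjusted p up to 0.10), without overlap of groups, or in a panel of known transporters with a mean of at least 1 FPKM. Slc22a13b, Abcb1a, Abcc3 and the uncalled partner genes named were chosen after their values were seen.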

Additional observations from a re-analysis of the deposited data

Results flagged for a closer look

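In each group of 6 mice, PBS replicate 6 included, the highest or lowest mouse was compared with the others by Dixon's ratio for the 41 genes chosen by the rule for named genes. Of 123 combinations of gene and group, 20 had a mouse beyond the limit, in 18 genes, and chance gives about 1 in 20. Genes of the same mouse are not independent, and PBS replicate 6 had been set aside for standing apart. The count is therefore no test against that rate.

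PBS replicate 6 held 9 of these values. It was lowest for Slc22a18 at 61.9 FPKM (178 to 228 in the other PBS mice), Slc22a2 at 37.5 (78.6 to 98.2), Slc22a30 at 4.77 (32.4 to 48.7), Slc22a22 at 2.64 (21.8 to 28.3) and Slc22a26 at 0.959 (6.65 to 8.60). It was also lowest for Slco3a1 at 7.04 FPKM (10.9 to 13.0), Slc22a4 at 4.66 (10.7 to 12.3) and Slc22a17 at 3.86 (4.95 to 5.57), and highest for Abcb1b at 2.73 (0.853 to 1.37).

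Ctrl replicate 3 held 7. It was highest for Abcc2 at 40.8 FPKM (22.9 to 26.2 in the other Ctrl mice), Slc22a22 at 39.0 (28.2 to 31.1), Slc22a23 at 10.4 (6.59 to 7.76), Abcc10 at 2.97 (1.40 to 1.97), Abcc6 at 2.80 (1.76 to 2.08) and Slco2a1 at 2.12 (0.976 to 1.35), and lowest for Abcb8 at 10.1 (12.4 to 12.9). This mouse was the highest of 18 for 8 of the 55 genes tested, against 13.7% of all genes.

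The other 4 values were in 4 mice. Ctrl replicate 4 had 7.06 FPKM of Slco4a1 (1.18 to 2.93 in the other Ctrl mice), Ctrl replicate 2 had 3.66 of Slc22a21 (2.80 to 3.08), Ctrl replicate 6 had 65.9 of Slc22a28 (80.4 to 86.0), and FLX replicate 2 had 1.45 of Abcc10 (1.87 to 2.04 in the other FLX mice).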

How the results depend on the processing

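Counts of called transporter genes moved with the processing, but no called gene changed its sign. In PBS versus Ctrl the count of 3 became 7 with upper-quartile scaling, 9 with DESeq2, 7 with limma on log2(FPKM + 0.1) and 5 on log2(FPKM + 1), and leaving out single mice gave 3 to 8, the latter without Ctrl replicate 3. It was 4 with all 6 PBS mice and 3 with RLE scaling, with no filter and with the 2 groups alone. The counts over all genes moved too, from 433 higher and 339 lower in the main fit to 783 and 630 with DESeq2. They were 314 and 449 with upper-quartile scaling, and 916 and 746 without Ctrl replicate 3. With the 2 limma fits they were 373 and 397, and 351 and 383. Slc22a12, Slc22a4 and Slc22a29 were called in all 26 alternatives. In FLX versus PBS the count of 1 became 3 with all 6 PBS mice (Slc22a29 lost, Slc22a12 and Abcg3 higher and Slc22a21 lower), 4 with DESeq2, 4 and 3 with limma, and 0 with no filter (13 at an unadjusted p under 0.05). Leaving out single mice gave 0 to 4 (4 without Ctrl replicate 3), and 8 to 12 genes had an unadjusted p under 0.05 where the count was 0. With the 2 groups alone the 1 call was Slc22a12. Over all genes 62 were higher and 85 lower in the main fit of this comparison, and 251 and 247 with DESeq2. They were 45 and 66 with all 6 PBS mice, 33 and 55 with no filter, and 104 and 146 without Ctrl replicate 3. With the 2 limma fits they were 192 and 63, and 182 and 60. In FLX versus Ctrl the count of 1 became 0 with all 6 PBS mice (7 at an unadjusted p under 0.05), 2 with upper-quartile scaling and 2 with DESeq2, and 0 to 6 without single mice (6 without Ctrl replicate 3). Here 422 of all genes were higher and 322 lower in the main fit, and 1557 and 1542 without Ctrl replicate 3. With all 6 PBS mice they were 202 and 152, with upper-quartile scaling 340 and 412, and with DESeq2 906 and 709. With FLX replicates 1 and 2 only, or 3 to 6 only, both comparisons gave 0 calls in edgeR, with 6 and 13 genes at an unadjusted p under 0.05 against PBS and 2 and 11 against Ctrl. Among all genes, replicates 1 and 2 gave 0 calls against PBS, and 4 higher and 0 lower against Ctrl. Replicates 3 to 6 gave 17 higher and 21 lower against PBS, and 102 and 77 against Ctrl. Fewer mice enter those fits, and FLX replicates 3 to 6 had lower total counts. The cause of these moves was not tested in any setting. The call of Slc22a29 in FLX versus PBS held in 15 of 28 alternatives and that of Slc22a4 in FLX versus Ctrl in 21 of 28.

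Same-numbered mice did not deviate together, with correlations from -0.205 to 0.227 over 20251 genes, so the numbers were not taken as pairs. With the replicate number as a block the counts were 3 in PBS versus Ctrl, 0 in FLX versus PBS (12 at an unadjusted p under 0.05) and 0 in FLX versus Ctrl (9). In that fit 241 of all genes were higher and 178 lower in PBS versus Ctrl. In FLX versus PBS they were 21 and 46, and in FLX versus Ctrl 153 and 105. Of the 41 named genes, 15, 13 and 8 had an exact permutation p under 0.05 in the 3 comparisons. With all 6 PBS mice the counts were 18 and 14 in the first and second. Some of these genes were named because they were called or their groups did not overlap in the same data. These counts are therefore no separate support.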
